A study of Homo sapiens with 8 samples.

Results

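HT29 cells grown without drug and sorted for cyclin B1 protein were compared here in 4 of the 8 libraries of the series, 2 of the CCNB1-positive and 2 of the CCNB1-negative fraction. HT29, a line derived from a human colorectal cancer, carries an activating BRAF mutation, so the ERK pathway signals continuously in these cells. Cells were fixed with glyoxal, permeabilised, stained with an antibody to cyclin B1 and sorted, and poly(A)-selected RNA was sequenced. The other 4 libraries hold the same fractions of cells treated with 1 μM selumetinib, a MEK inhibitor, for 24 h, and enter here as the comparison for the difference between untreated fractions and in the shared estimate of the spread. Of the 38148 genes in the deposited table, the 14219 whose mean log2 value over all 8 libraries reached that of 1 RPM were tested. Values are log2 of read counts scaled to library size, and RPM stands for reads per 1000000 reads on genes.

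The labels of these libraries contradict each other. The sample descriptions, which are also the column names of the table, call the 4 libraries untreated CCNB1-negative and CCNB1-positive, and they were followed. The sample titles and the medium given for the same samples name selumetinib, with the fractions exchanged. Of 20 known targets of ERK signalling, 16 had all 4 libraries described as untreated above all 4 described as treated. The share of all genes with this ordering was not counted, so the number does not settle the labels. It bears on the treatment and not on the fractions. The sort was on antibody staining and not on DNA content, with positive and negative gates set apart, so cells of intermediate staining are in neither fraction. Nothing in the labels says that the 2 replicates of a fraction came from separate cultures, so p-values measure the spread between these libraries.

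Cyclin B1 is made as cells leave S phase, peaks in G2 and mitosis and is destroyed at anaphase, so a CCNB1-positive fraction holds mainly G2 and mitotic cells and a CCNB1-negative fraction mainly G1 and S-phase cells. Transcription follows the cycle in 2 waves. At the G1/S boundary E2F factors, released from the RB protein, switch on genes for cyclin E, for loading and firing replication origins and for copying DNA. In G2 the MuvB complex, joined first by B-MYB and then by FOXM1, switches on the genes of mitosis through a promoter element called the cell cycle genes homology region (CHR), often beside a CCAAT box bound by NF-Y. In a bulk library, fewer cells expressing a gene and less RNA per cell cannot be told apart.

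The untreated libraries held 19114877 to 23916160 reads on genes. Replicates differed by more than sampling noise, with a chi-square per gene of 30.2 in the CCNB1-negative and 17.1 in the CCNB1-positive pair. Mitochondrial transcripts took 7.80% and 4.44% of reads in CCNB1-negative replicates 1 and 2 and 6.57% and 4.91% in CCNB1-positive replicates 1 and 2, so replicate 1 was higher in both fractions and the fractions overlapped. Defining markers of colon epithelium summed to 11774 to 12960 RPM in the CCNB1-negative and 11564 to 11832 RPM in the CCNB1-positive libraries. The 15 markers of fibroblast, muscle, endothelial and immune cells summed to 4.45 to 5.24 RPM and 3.95 to 4.98 RPM, and for 5 of them no untreated library held more than 3 reads.

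CCNB1 itself (ENSG00000134057, chromosome 5 of GRCh38, 69167135 to 69178245) had log2 values of 11.66 and 12.01 in the CCNB1-negative and 13.79 and 14.05 in the CCNB1-positive libraries. Both CCNB1-positive libraries lay above both CCNB1-negative libraries. The difference was 2.09 (SE 0.21, 95% interval 1.64 to 2.54, adjusted p = 3.3e-05), a check of the sort rather than a result, since the protein of this gene set the gates.

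Between the untreated fractions 408 genes, 2.87% of those tested, passed an adjusted p of 0.05 in limma. Values were higher in CCNB1-positive cells for 194 gene entries (1.36%) and lower for 214 (1.51%). Among the higher genes 134 differed at least 2-fold and 31 at least 4-fold, and among the lower genes 121 and 23 did. The higher genes were almost all protein coding, with 6 long non-coding RNAs (3.09%), while 36 of the lower genes (16.8%) were long non-coding RNAs, which made up 13.1% of all genes tested. The median difference over all genes tested was −0.06, and the median SE was 0.19. Under quantile normalization the counts were 167 and 87, so that 65.7% of calls were higher instead of 47.5%.

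The numbers called changed when 1 untreated library was left out. They were 178 higher and 85 lower without CCNB1-negative replicate 1, 130 and 99 without CCNB1-negative replicate 2, 142 and 309 without CCNB1-positive replicate 1, and 143 and 81 without CCNB1-positive replicate 2. In none of these fits was a called gene called in the opposite direction.

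**Figure D1:**
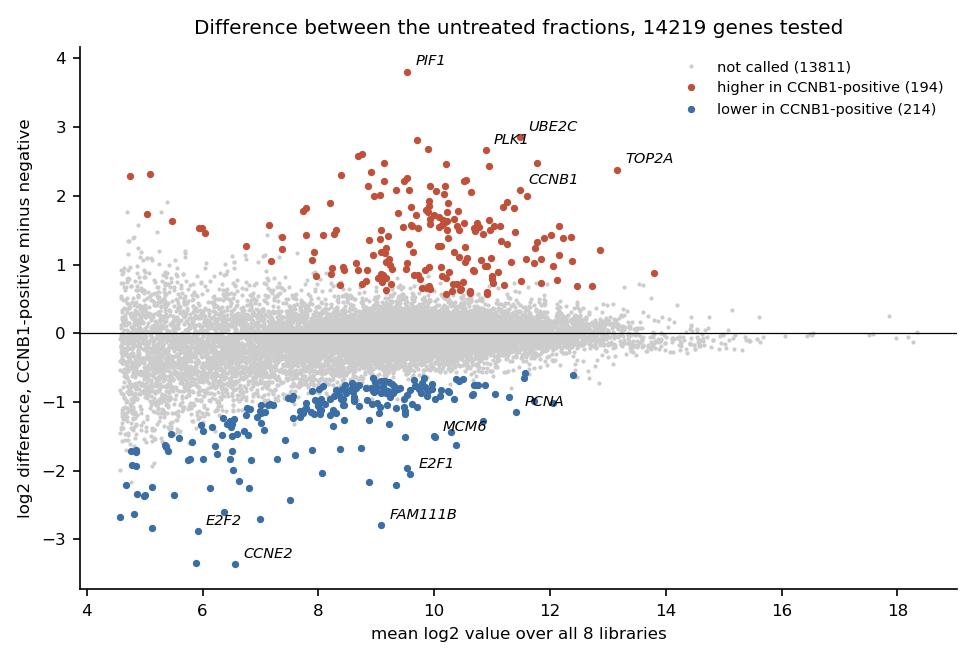
Difference between the untreated fractions (vertical axis, log2, CCNB1-positive minus CCNB1-negative) against the mean log2 value over all 8 libraries (horizontal axis) for the 14219 genes tested, each point a gene. The 194 genes called higher (red) and the 214 called lower (blue) lie on either side of the 13811 that were not called (grey), from PIF1 at 3.81 to CCNE2 at −3.37.

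The 10 genes with the largest rise were PIF1, UBE2C, KIF20A, PSRC1, PLK1, TNFAIP8L1, DEPDC1, KIF14, KPNA2 and FAM83D. PIF1, a DNA helicase, had values of 8.73 and 7.26 in the CCNB1-negative and 12.02 and 11.59 in the CCNB1-positive libraries, a difference of 3.81 (SE 0.39, adjusted p = 3.9e-05). UBE2C, the ubiquitin-conjugating enzyme that works with the anaphase-promoting complex, stood at 11.68 and 10.78 against 14.04 and 14.13 (difference 2.86, SE 0.28, adjusted p = 2.8e-05). In both genes the CCNB1-negative replicates lay further apart than the CCNB1-positive ones, and the fractions did not overlap. The remaining 8 rose by 2.46 to 2.81. PSRC1, a microtubule-binding protein of the spindle, rose by 2.68 (SE 0.18). TNFAIP8L1 had 144 and 113 reads in the CCNB1-negative and 936 and 801 reads in the CCNB1-positive libraries, a log2 difference of 2.60 (SE 0.17, adjusted p = 2.3e-06).

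The 10 genes with the largest fall were CCNE2, TP53INP1, E2F2, FAM111B, PDZRN3, C4orf47, KIF19, FAM222A, CCNE1 and NEUROG3. FAM111B, a protease linked to replication, stood at 11.29 and 11.49 in the CCNB1-negative and at 8.56 and 8.62 in the CCNB1-positive libraries, a fall of 2.80 on the log2 scale (SE 0.16, adjusted p = 1.1e-06). NEUROG3, the transcription factor that commits intestinal cells to the endocrine lineage, had 25 and 17 reads against 5 and 4 reads (difference −2.36, SE 0.40, adjusted p = 0.0037). Several of the largest falls rest on few reads. TP53INP1, an autophagy and p53 response gene, had 26 and 19 reads against 3 and 2, a ratio of scaled reads of 0.099 with a counting interval of 0.031 to 0.249. PDZRN3, C4orf47 and KIF19 had 36 reads or fewer in every untreated library, and their ratios were 0.187, 0.179 and 0.170. The intervals were 0.097 to 0.336, 0.044 to 0.534 and 0.042 to 0.505 and cover counting error only.

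Promoters of the genes called higher and lower held known cell cycle elements in different shares. In a window from 250 bases before to 50 after each start in GENCODE 44, on both strands, the CHR was searched as TTTGAA and TTCGAA, the CCAAT box as CCAAT, and the E2F site as TTTCCCGC, TTTCGCGC, TTTGCCGC and TTTGGCGC. TTCGAA reads alike on both strands and was counted once, and overlapping matches each count. The CHR letters stood in 61.9% of windows of genes called higher, 14.1% of genes called lower and 10.8% of genes not called. A CCAAT box stood in 73.2%, 45.5% and 35.7%, and both elements in 50% of the genes called higher against 7.04% and 4.4%. The E2F letters stood in 7.73% of genes called higher, 16.4% of genes called lower and 4.91% of genes not called. Among all 62700 annotated starts the shares were 20.3% for the CHR, 36.5% for the CCAAT box and 2.18% for the E2F site. In the genes called higher the median position of the CHR letters was −31 relative to the start. A match is a description of the sequence and was not tested as a binding site.

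**Figure D2:**
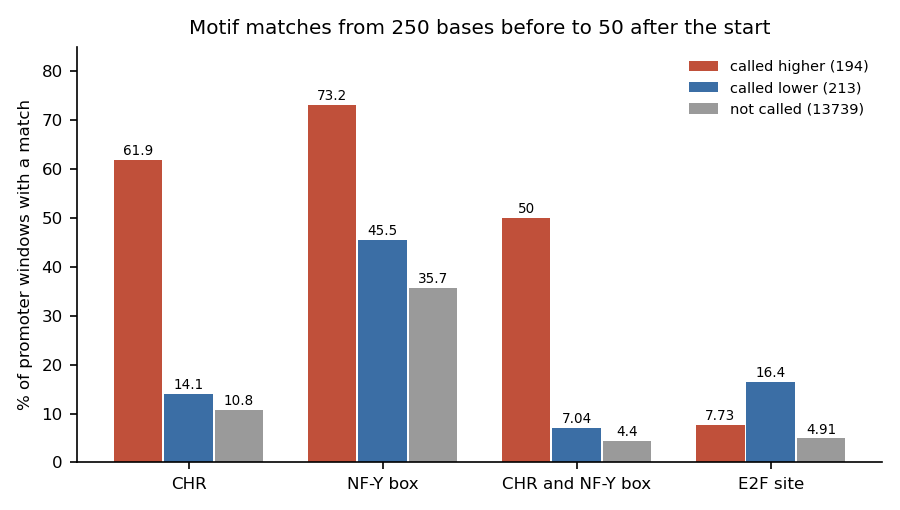
Share of promoter windows with a match (vertical axis, %) for the CHR, the CCAAT box bound by NF-Y, both together and the E2F site, in genes called higher (red, 194 windows), called lower (blue, 213) and not called (grey, 13739) in untreated CCNB1-positive cells. The CHR and the pair of elements stand highest in the red bars, at 61.9% and 50%, and the E2F site in the blue bar, at 16.4%.

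The following windows, from RefSeq on GRCh38.p14, show these letters in genes the results turn on, chosen after their values were seen. Each runs 5′ to 3′ in the direction of the gene, and capitals mark the letters searched on either strand. In PLK1, CCNB2 and PSRC1 the CHR begins at −29 and in PIF1 at −20, each downstream of a CCAAT box, and the CDC20 window holds 2 of each. The CCNB1 window holds 2 CCAAT boxes and no CHR letters as searched.
PLK1 (chr16:23678639-23678938, plus strand): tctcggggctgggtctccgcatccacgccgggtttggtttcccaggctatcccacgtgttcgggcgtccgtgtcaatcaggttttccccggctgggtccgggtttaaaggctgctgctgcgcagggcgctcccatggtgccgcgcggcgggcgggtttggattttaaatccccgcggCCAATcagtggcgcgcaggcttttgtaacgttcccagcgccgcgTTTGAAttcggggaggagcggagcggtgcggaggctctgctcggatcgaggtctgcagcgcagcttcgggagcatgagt
CCNB2 (chr15:59104896-59105195, plus strand): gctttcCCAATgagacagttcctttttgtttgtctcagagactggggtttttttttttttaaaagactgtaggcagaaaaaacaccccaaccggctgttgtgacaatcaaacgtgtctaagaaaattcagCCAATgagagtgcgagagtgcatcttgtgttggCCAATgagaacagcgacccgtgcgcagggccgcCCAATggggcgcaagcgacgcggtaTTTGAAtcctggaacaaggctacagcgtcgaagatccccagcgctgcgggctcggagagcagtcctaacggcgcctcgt
PSRC1 (chr1:109283096-109283395, minus strand): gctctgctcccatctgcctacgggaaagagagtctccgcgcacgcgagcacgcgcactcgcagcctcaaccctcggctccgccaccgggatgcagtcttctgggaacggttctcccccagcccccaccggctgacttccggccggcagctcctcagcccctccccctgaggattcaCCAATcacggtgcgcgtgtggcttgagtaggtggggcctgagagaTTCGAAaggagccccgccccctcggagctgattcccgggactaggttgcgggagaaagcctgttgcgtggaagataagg
PIF1 (chr15:64825598-64825897, minus strand): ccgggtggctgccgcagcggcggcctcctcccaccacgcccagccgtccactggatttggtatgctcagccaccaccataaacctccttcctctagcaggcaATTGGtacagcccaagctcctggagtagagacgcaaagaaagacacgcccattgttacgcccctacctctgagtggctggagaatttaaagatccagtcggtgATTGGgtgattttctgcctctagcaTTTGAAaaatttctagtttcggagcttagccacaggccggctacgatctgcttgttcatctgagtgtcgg
CDC20 (chr1:43358731-43359030, plus strand): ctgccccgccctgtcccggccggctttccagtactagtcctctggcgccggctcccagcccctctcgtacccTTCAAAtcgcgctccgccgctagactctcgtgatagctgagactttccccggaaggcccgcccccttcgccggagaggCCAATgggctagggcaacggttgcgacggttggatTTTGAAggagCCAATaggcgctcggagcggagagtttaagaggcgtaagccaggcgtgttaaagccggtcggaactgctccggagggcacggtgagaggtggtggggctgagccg
CCNB1 (chr5:69166900-69167199, plus strand): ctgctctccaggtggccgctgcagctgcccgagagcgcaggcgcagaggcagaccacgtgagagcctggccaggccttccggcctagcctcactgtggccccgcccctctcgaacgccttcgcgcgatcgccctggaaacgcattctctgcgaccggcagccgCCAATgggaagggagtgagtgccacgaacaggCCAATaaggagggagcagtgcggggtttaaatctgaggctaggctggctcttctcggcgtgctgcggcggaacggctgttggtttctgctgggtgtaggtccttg

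Genes that fell are shown for contrast. E2F1 holds 2 E2F sites, its own factor's motif, and CDC6, PCNA and DTL hold 1 each, and none of these 4 windows has CHR letters. All 4 windows also hold CCAAT boxes, 3 each in E2F1, CDC6 and PCNA and 1 in DTL. They are picked examples, since the E2F letters stood in only 16.4% of windows of genes called lower. PCNA has 2 entries in RefSeq, of which 1 is shown.
E2F1 (chr20:33686336-33686635, minus strand): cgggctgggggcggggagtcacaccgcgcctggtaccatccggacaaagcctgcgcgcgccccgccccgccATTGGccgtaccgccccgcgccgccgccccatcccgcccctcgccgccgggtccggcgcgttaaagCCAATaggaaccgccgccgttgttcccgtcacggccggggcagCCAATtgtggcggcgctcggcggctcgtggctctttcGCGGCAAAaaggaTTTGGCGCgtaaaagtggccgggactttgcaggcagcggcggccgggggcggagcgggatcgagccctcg
CDC6 (chr17:40287629-40287928, plus strand): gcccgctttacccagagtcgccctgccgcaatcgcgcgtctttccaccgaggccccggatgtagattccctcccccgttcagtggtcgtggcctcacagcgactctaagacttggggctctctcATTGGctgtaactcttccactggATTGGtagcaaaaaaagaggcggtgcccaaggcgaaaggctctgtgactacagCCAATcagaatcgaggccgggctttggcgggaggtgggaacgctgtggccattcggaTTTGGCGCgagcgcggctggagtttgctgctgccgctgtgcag
PCNA (chr20:5126573-5126872, minus strand): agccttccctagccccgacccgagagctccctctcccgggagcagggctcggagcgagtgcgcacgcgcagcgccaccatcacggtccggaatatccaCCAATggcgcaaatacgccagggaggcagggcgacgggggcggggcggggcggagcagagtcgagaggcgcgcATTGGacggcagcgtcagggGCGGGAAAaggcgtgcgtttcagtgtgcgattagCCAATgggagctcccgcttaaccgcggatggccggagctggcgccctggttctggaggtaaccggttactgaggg
DTL (chr1:212035498-212035797, plus strand): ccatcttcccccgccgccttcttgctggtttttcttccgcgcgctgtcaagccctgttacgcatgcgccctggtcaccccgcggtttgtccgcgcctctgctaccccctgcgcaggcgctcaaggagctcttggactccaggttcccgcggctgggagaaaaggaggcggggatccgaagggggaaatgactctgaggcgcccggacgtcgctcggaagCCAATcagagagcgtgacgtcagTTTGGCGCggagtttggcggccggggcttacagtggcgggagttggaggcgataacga

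Published marker lists for G2/M and S phase, made in single cells of other origin, were called on opposite sides. Of 53 G2/M markers tested, 50 rose and 0 fell, with a median difference of 1.63 against −0.06 over all genes, and 52 of them had both CCNB1-positive libraries above both CCNB1-negative ones, as did 16.3% of all genes. The 3 that did not pass were CBX5 at 0.05, TMPO at 0.41 and CTCF at 0.48. A further entry, HN1, was not matched in the list under its older name, and the table holds it as JPT1, which rose by 0.69 (SE 0.14). Of 43 S-phase markers 27 fell and 0 rose, with a median of −0.87, and 40 had both CCNB1-positive libraries below both others, as did 28% of all genes. The CHR letters stood in 90.6% of the windows of the G2/M markers and the E2F letters in 48.8% of those of the S-phase markers.

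Mitotic kinases and their regulators made up the first group of genes that rose. Of 20 regulators of mitotic entry 11 rose and 0 fell, with a median of 1.20. Among all genes tested 1.36% rose and 1.51% fell, and the same shares stand beside the counts in the paragraphs that follow. PLK1, the kinase that drives centrosome maturation and entry into mitosis, had values of 10.93 and 10.52 in the CCNB1-negative and 13.29 and 13.48 in the CCNB1-positive libraries (difference 2.67, SE 0.20, adjusted p = 5.3e-06). AURKA, which activates PLK1, stood at 10.89 and 10.65 against 13.14 and 13.26 (difference 2.43, SE 0.15, adjusted p = 1.1e-06). Neither gene overlapped between fractions. CDC25C and CDC25B, the phosphatases that remove the inhibitory phosphates from CDK1, rose by 2.08 (SE 0.18) and 1.43 (SE 0.15). CDK1 itself rose by 1.60 (SE 0.24, adjusted p = 0.0014), CCNB2 by 1.57 (SE 0.19) and CCNA2, the cyclin of S and G2, by 1.55 (SE 0.17). BORA and GTSE1, an activator of Aurora A and a G2 regulator of p53, rose by 1.83 and 2.21.

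Transcripts of the opposing kinases and of most of the MuvB machinery did not pass the test. WEE1, which holds CDK1 inactive, had values of 10.62 and 10.58 against 10.68 and 10.64, a difference of 0.06 with a 95% interval of −0.30 to 0.42. PKMYT1, its membrane-bound relative, differed by −0.11 (SE 0.22). FOXM1 rose by 0.98 (SE 0.15, adjusted p = 0.0018), while MYBL2, which encodes B-MYB, stood at 12.38 and 12.37 against 12.62 and 12.61 (difference 0.24, SE 0.13, adjusted p = 0.49). The MuvB genes LIN9, LIN37, LIN52, LIN54 and RBBP4 lay between −0.38 and 0.28.

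**Figure D3:**
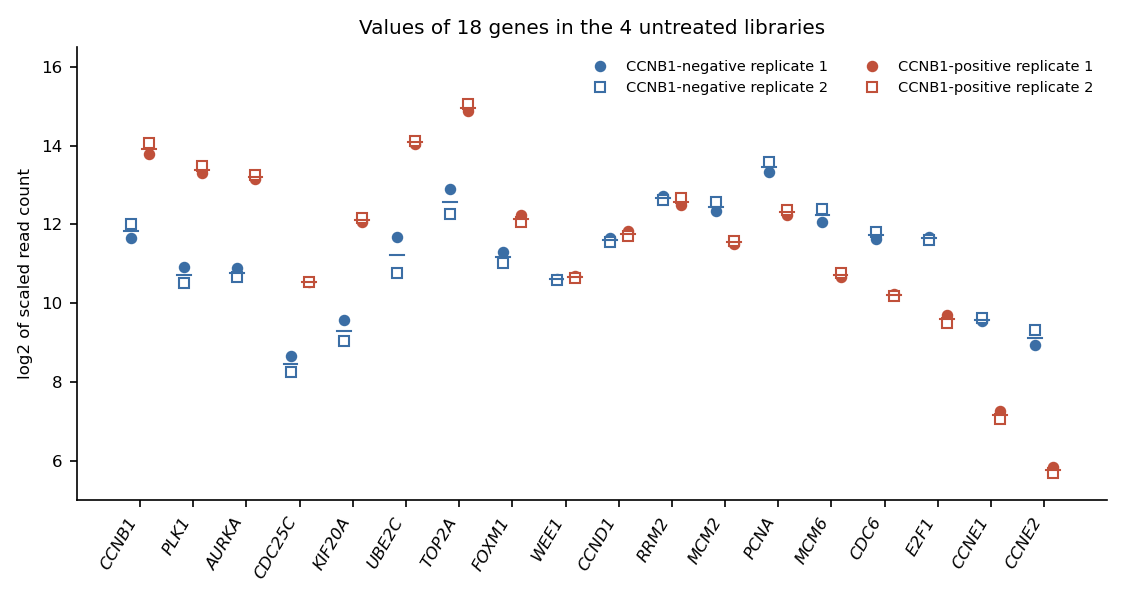
Log2 of scaled read counts (vertical axis) of 18 genes in the 4 untreated libraries, CCNB1-negative in blue and CCNB1-positive in red, filled circles for replicate 1, open squares for replicate 2 and a line at the mean of each pair. Genes of mitosis such as PLK1 and KIF20A lie higher in both red libraries, WEE1 and RRM2 lie together, and CCNE1 and CCNE2 lie lower in both red libraries. CCNE2 stands at 5.83 and 5.69 there.

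Most spindle genes rose. Of 26 spindle motors and microtubule factors 23 rose and 0 fell, with a median of 1.62. KPNA2, an importin that delivers spindle factors, rose by 2.47 (SE 0.20), HMMR by 2.26 (SE 0.17) and ASPM, which organises spindle poles, by 2.21 (SE 0.22). TPX2, the activator of Aurora A on the spindle, had values of 11.95 and 11.66 against 13.76 and 13.84 (difference 2.0, SE 0.17, adjusted p = 8e-06). KIF2A, TUBA1B and STMN1, which have roles outside mitosis as well, did not pass, at −0.08, 0.24 and 0.27. Of 17 cytokinesis genes tested 13 rose and 0 fell, with a median of 1.51. KIF20A, a kinesin of the central spindle, stood at 9.57 and 9.04 against 12.05 and 12.17 (difference 2.81, SE 0.20, adjusted p = 4.3e-06), and DEPDC1 and KIF14, a regulator of mitotic progression and a motor of the midbody, rose by 2.57 and 2.48. RHOA and CHMP4B, which also act outside cell division, lay at 0.04 and −0.04.

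Many genes of chromosome segregation rose. Of 7 genes of the chromosomal passenger complex and the shugoshins, which guard centromeric cohesion, 6 rose, with a median of 1.76. SGO2 rose by 2.08 (SE 0.17), CDCA8 by 1.89 and INCENP by 1.85 (SE 0.26), and AURKB, the kinase of the complex, had values of 10.27 and 9.73 against 11.83 and 11.70 (difference 1.76, SE 0.20, adjusted p = 9.1e-05). Of 11 spindle checkpoint genes 5 rose, among them TTK by 1.75 (SE 0.16) and BUB1 by 1.72 (SE 0.16), while MAD2L1 lay at 0.47 (SE 0.18, adjusted p = 0.25). Of 14 genes of condensin and the mitotic chromosome 9 rose, with a median of 1.05. TOP2A, the topoisomerase that untangles sister chromatids, stood at 12.90 and 12.25 against 14.87 and 15.04 (difference 2.38, SE 0.21, adjusted p = 1.2e-05), and MKI67, which coats mitotic chromosomes, held 6750 and 3793 against 16413 and 13154 reads (log2 difference 1.38, SE 0.20). Within condensin, NCAPG, NCAPH and NCAPD2 of condensin I rose by 1.19, 1.03 and 1.30, and NCAPD3, NCAPG2 and NCAPH2 of condensin II lay at 0.15, 0.28 and 0.14 and did not pass. The difference between the subunits was not tested.

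Kinetochore genes moved in both directions. Of 32 tested 11 rose and 2 fell, where 1.36% and 1.51% of all genes tested did, with a median of 0.49. CENPE, a kinetochore kinesin, rose by 2.23 (SE 0.18, adjusted p = 7.5e-06), CENPF by 1.83 (SE 0.20), NDC80, the microtubule anchor, by 1.79 (SE 0.23) and CENPA, the centromeric histone, by 1.61 (SE 0.15). DSN1, a subunit of the MIS12 complex, had 1611 and 1409 reads against 1021 and 904, a fall of 0.81 on the log2 scale (SE 0.14, adjusted p = 0.0043). CENPU, of the inner kinetochore, fell by 0.70 (SE 0.17, adjusted p = 0.041), and was not called with quantile normalization or with no filter.

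In the anaphase-promoting complex both coactivators rose and most core subunits did not pass. Of 21 genes of the complex and of sister separation 7 rose and 0 fell, with a median of 0.12. Among all genes tested 1.36% rose. ESPL1, which encodes separase, rose by 2.21 (SE 0.25), and CDC20 and FZR1, the 2 coactivators, rose by 1.91 (SE 0.16) and 1.58 (SE 0.17). The substrates and partners UBE2S and PTTG1, the latter encoding securin, rose by 1.34 and 1.10. CDC27 was the one core subunit that rose, by 0.88 (SE 0.16, adjusted p = 0.0069), and the other 13 core subunits lay between −0.26 and 0.18. FBXO5, the inhibitor EMI1, lay at −0.29 (SE 0.19).

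Cyclin E genes, E2F1 and E2F2 had the largest falls among genes of the G1/S switch. Of 22 G1/S cyclins, their kinases and E2F family genes tested 5 fell and 1 rose, with a median of −0.47. Among all genes tested 1.51% fell and 1.36% rose. CCNE2 had values of 8.94 and 9.32 in the CCNB1-negative and 5.83 and 5.69 in the CCNB1-positive libraries (difference −3.37, SE 0.28, adjusted p = 7.8e-06). CCNE1 stood at 9.54 and 9.63 against 7.26 and 7.05 (difference −2.43, SE 0.24, adjusted p = 2.7e-05). Both genes lay lower in both CCNB1-positive libraries. E2F2 and E2F1, activators of S-phase genes, fell by 2.88 (SE 0.38) and 2.05 (SE 0.15), and CDK2, the partner of cyclin E, by 0.90 (SE 0.15, adjusted p = 0.0025). E2F5, a repressor of the family, rose by 0.86 (SE 0.21, adjusted p = 0.037). The activator E2F3 lay at −0.22 (SE 0.15). The repressors E2F7 and E2F8 lay at −1.32 (SE 0.34, adjusted p = 0.061) and −0.68 (SE 0.22, adjusted p = 0.15).

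The D cyclins and CDK4 did not pass the test. CCND1, the cyclin that links growth signals to the cycle, had values of 11.66 and 11.55 against 11.83 and 11.69, a difference of 0.16 with a 95% interval of −0.15 to 0.47. CCND3 lay at −0.49 (SE 0.17, adjusted p = 0.18) and CDK4 at −0.05, and CCND2 was below the filter. Of 8 genes for inhibitors of cyclin-dependent kinases and the phosphatase CDKN3, 3 rose and 1 fell. Among all genes tested 1.36% rose and 1.51% fell. CDKN2D and CDKN2C, which inhibit CDK4 and CDK6, rose by 1.58 (SE 0.23) and 1.27 (SE 0.28), and CDKN3 by 1.14 (SE 0.21). CDKN1C fell by 1.41 (SE 0.34, adjusted p = 0.039). CDKN1A stood at 6.07 and 5.76 against 6.07 and 4.99 (difference −0.39, SE 0.49), with overlapping fractions, and CDKN1B at 0.37 (SE 0.19, adjusted p = 0.46).

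Genes that load replication origins were among those that fell. Of 18 origin genes 8 fell and 0 rose, with a median of −0.50, where 1.51% of all genes tested fell. Within the MCM2-7 helicase the falls were 1.52 for MCM6 (SE 0.15), 1.5 for MCM5 (SE 0.16), 0.93 for MCM3, 0.90 for MCM2 and 0.88 for MCM4, while MCM7, at 13.70 and 13.75 against 13.31 and 13.35, lay at −0.40 (SE 0.14, adjusted p = 0.21). The MCM6 values were 12.07 and 12.39 against 10.66 and 10.77. CDC6, which loads the helicase, stood at 11.64 and 11.81 against 10.23 and 10.19 (difference −1.51, SE 0.16, adjusted p = 5.8e-05). ORC1 and MCM10 fell by 0.98 and 1.19, and ORC2 to ORC6 lay between −0.37 and 0.17. CDT1 and its inhibitor GMNN did not pass, at −0.45 (SE 0.15) and −0.55 (SE 0.17).

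Fork and chromatin genes fell more often than they rose, and nucleotide supply genes did not pass. Of 36 replication fork genes 9 fell and 0 rose, with a median of −0.45, where 1.51% of all genes tested fell. CLSPN, the checkpoint mediator claspin, fell by 1.44 (SE 0.19), and PCNA, the sliding clamp, had values of 13.32 and 13.59 against 12.24 and 12.37 (difference −1.15, SE 0.17, adjusted p = 0.0011). GINS2 fell by 1.07 (SE 0.17) and CDC45 by 0.65 (SE 0.15, adjusted p = 0.038), while GINS1 lay at 0.03 and POLE at −0.31. Of 13 genes that assemble chromatin behind the fork 6 fell, with a median of −0.88, led by CASP8AP2, a factor in histone gene expression, at −1.18 (SE 0.21), and by CHAF1B and CHAF1A of the CAF-1 chaperone at −1.12 and −1.03. SLBP, which binds histone mRNA, fell by 0.96 (SE 0.16), and UHRF1 lay at −0.96 (SE 0.25, adjusted p = 0.055). None of 13 nucleotide supply genes passed in limma or in limma-voom, and 3 had an unadjusted p under 0.05, which 13.5% of all genes tested had. RRM2, the regulated subunit of ribonucleotide reductase, had values of 12.72 and 12.62 against 12.48 and 12.67, a difference of −0.09 with an interval of −0.40 to 0.22, and TYMS lay at −0.34 (SE 0.15, adjusted p = 0.33).

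Repair genes fell in part. Of 31 genes of homologous recombination and the Fanconi pathway 6 fell and 0 rose, with a median of −0.17. Among all genes tested 1.51% fell and 1.36% rose. RMI2, EXO1 and BRIP1 fell by 1.27, 1.12 and 1.08, while BRCA2, at 9.32 and 9.10 against 9.41 and 9.25, lay at 0.12 (SE 0.18) and FANCD2 at 0.46 (SE 0.20). Of 13 replication checkpoint genes CHEK2 rose by 0.72 (SE 0.16, adjusted p = 0.029) and CHEK1 lay at −0.28 (SE 0.15). DTL, a subunit of the ubiquitin ligase that degrades CDT1 in S phase, fell by 2.16 (SE 0.26) among the S-phase markers, and UNG, a uracil glycosylase, by 1.62 (SE 0.16).

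**Figure D4:**
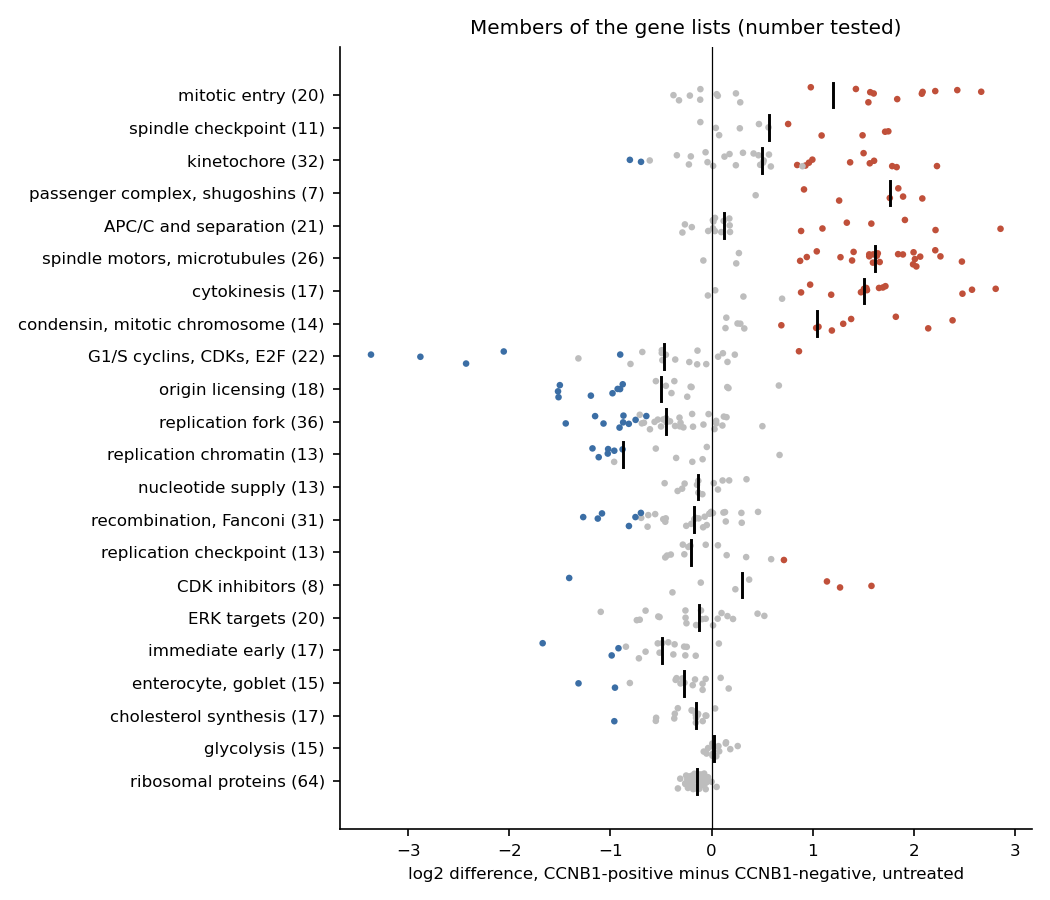
Log2 difference between the untreated fractions (horizontal axis, CCNB1-positive minus CCNB1-negative) for the members of 22 gene lists, each point a gene, red called higher, blue called lower and grey not called, with a black line at the median of the list and the number tested in brackets. Lists of mitosis lie to the right, with spindle motors at a median of 1.62, and lists of the G1/S switch and replication to the left, with replication chromatin at −0.88.

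Some lists outside the cell cycle held called genes, where 1.36% of all genes tested were called higher and 1.51% lower. None of 20 ERK targets passed in limma or limma-voom, 7 had an unadjusted p under 0.05, against 13.5% of all genes, and the median was −0.13. Among them DUSP6, a phosphatase of ERK, lay at −0.74 (SE 0.20, adjusted p = 0.064), and FOSL1 at 0.45 (SE 0.16). Of 17 immediate early genes 3 fell, ATF3 by 1.67 (SE 0.24, adjusted p = 0.00095), FOSB by 0.99 and BTG2 by 0.92. Both CCNB1-positive libraries lay below both others for 14 of the 17, as they did for 28% of all genes tested. Of 15 genes of enterocytes and goblet cells 2 fell, both of goblet cells: TFF3, a trefoil peptide, had values of 8.28 and 8.70 against 7.20 and 7.15 (difference −1.32, SE 0.18), and FCGBP, a mucus protein, fell by 0.95 (SE 0.19). MUC2 lay at −0.31 (SE 0.38), with overlapping fractions. HSPA1A of 12 heat shock genes rose by 0.84 (SE 0.21, adjusted p = 0.048), but reads cannot be split safely from its near copy HSPA1B, at 0.50. INSIG1 of 17 cholesterol genes fell by 0.96 (SE 0.19). HIST1H2BD of 12 replication-dependent histone genes tested fell by 0.91 (SE 0.22). Most transcripts of such genes end without a poly(A) tail, so a poly(A) library holds few of them. Whether the HIST1H2BD reads came from transcripts with a tail was not tested.

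None of 15 glycolysis, 11 Wnt and stem cell, 10 colon epithelial, 13 mitochondrial, 5 nuclear long non-coding or 64 ribosomal protein genes passed in limma or limma-voom. With an unadjusted p under 0.05 there were 2 among the Wnt and stem cell genes, 1 among the nuclear long non-coding RNAs and 0 in the other 4 lists, against 13.5% of all genes tested. The 1 non-epithelial marker tested, COL1A1, lay at 0.88 and did not pass.

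Selumetinib-treated fractions gave the test of what differs with treatment. Of the 194 genes higher in untreated CCNB1-positive cells 185 were also called higher in treated CCNB1-positive cells, where 13.8% of genes tested were. The median difference of the 194 was 1.37 untreated and 3.04 treated, and the interaction was called in the positive direction for 125 of them and in the negative direction for 2, against 4.99% and 0.345% of all genes. Of the 214 lower genes 58 were also called lower and 43 called higher under treatment, where 7.87% and 13.8% of all genes were, and the interaction was positive for 74. The medians of the 214 were −1.06 and −0.37. Both sets were chosen by their untreated difference, which the interaction subtracts. For the 214 lower genes that choice by itself favours positive interactions and a treated median closer to that of all genes. For the 194 higher genes it favours negative interactions. Over all genes the median interaction was 0.11, and −0.03 under quantile normalization.

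For the S-phase markers the median difference changed from −0.87 to 1.15 under treatment, and 37 of 43 had a positive interaction. For the G2/M markers it changed from 1.63 to 3.94, and 48 of 53 had one. E2F1 differed by −2.05 between untreated and by 1.10 between treated fractions. TNFAIP8L1 differed by 2.60 and 2.70, with an interaction adjusted p of 0.86, and FZR1 by 1.58 and 1.22, with 0.43.

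**Figure D5:**
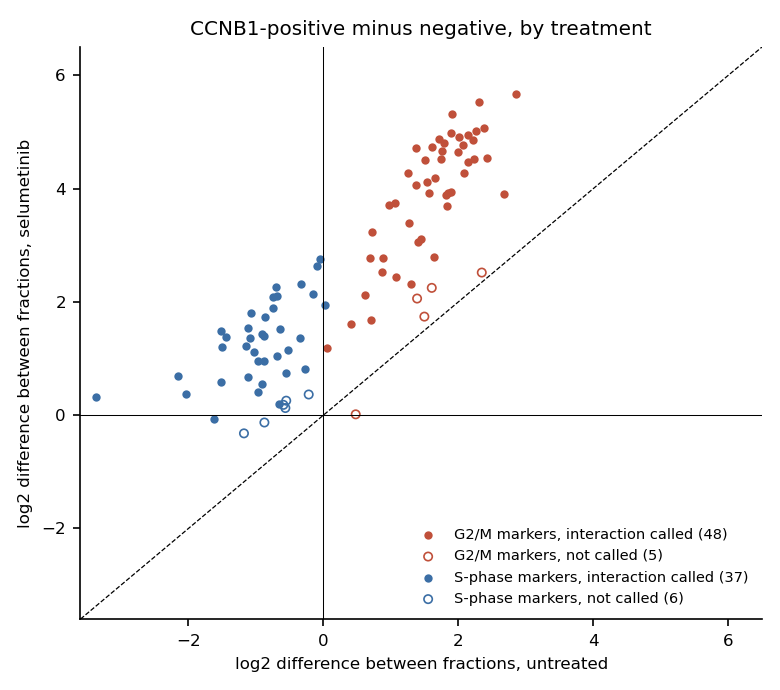
Log2 difference between CCNB1-positive and CCNB1-negative cells under selumetinib (vertical axis) against that in untreated cells (horizontal axis) for 53 G2/M markers (red) and 43 S-phase markers (blue), filled where the interaction was called, with a dashed line of equal differences. The medians are 1.63 untreated and 3.94 treated for the G2/M markers, and −0.87 and 1.15 for the S-phase markers.

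Some calls rest on settings or on shared sequence. Of the 96 genes chosen for description 86 were called, 60 of these in every alternative fit that tested them (15 of the 96 were below the filter of 10 RPM), and 26 lost the call under at least 1: BRIP1, BTG2, C4orf47, CASP8AP2, CDC45, CDKN1C, CDKN2C, CDKN3, CENPU, CHAF1A, CHEK2, DSN1, E2F5, EXO1, FCGBP, FOSB, HIST1H2BD, HSPA1A, INSIG1, KIF19, MCM2, MCM4, NEUROG3, PDZRN3, PTTG1 and SLBP. BTG2, CDKN1C, FCGBP and HIST1H2BD lost it with limma-voom and also in a fit of the 4 untreated libraries alone. C4orf47, CDKN2C, CENPU, FOSB and KIF19 lost it in that fit, with quantile normalization and with no filter. CDC45 and HSPA1A lost it with quantile normalization and with no filter. Among other genes named, ORC1, CDC27 and JPT1 lost it in 3, 2 and 5 fits. Annotated genes on the opposite strand overlap 100 of the 194 higher and 100 of the 214 lower genes, as they do 53.9% of all genes tested. Among genes named here these include PLK1, KIF20A, CDC25C, CCNA2, CCNB2, FOXM1, CCNE2, TP53INP1, CDK2 and DTL, and since the use of strand in counting is not stated, reads of the partner cannot be told apart. Some called entries also overlap on the same strand, so the entries counted are not all distinct genes. ARHGAP19 and ARHGAP19-SLIT1, both called higher, held 346 and 354 reads in CCNB1-negative replicate 1. Such entries were not counted.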

How the data were processed

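Per the study's methods and processing notes, the authors used Trim Galore 0.5.0 for trimming, HISAT2 2.1.0 for mapping on GRCh38 and SeqMonk for quantification, and deposited log2 values normalized to total read count. Annotation release and use of strand are not given in the sources used here, the kit being directional. The values are log2 of reads scaled to the largest library, with genes without a read at the value of 0.9 reads. In each library 100% of the nonzero values gave a whole read number (tolerance 0.001 of a read count). They carry no molecular identifiers, so intervals from them cover counting error only. The table holds 8 value columns, all used, and 0 others. GENCODE 44 holds 99.3% of the gene identifiers. The labels name another growth medium than the methods.

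The 4 untreated libraries were grouped by the sample descriptions. Genes whose mean reached 1 RPM went into a trended limma fit (limma 3.58.1, R 4.3.3) with 1 coefficient for each of 4 groups over all 8 libraries, two-sided, adjusted by Benjamini-Hochberg over 14219 genes. The interaction is the difference between fractions in treated minus that in untreated cells. The fit was tested on simulated reads of 14853 genes: in the untreated comparison 100% of 4-fold and 89.8% of 2-fold changes among 200 changed genes came back as calls, false calls numbered 13 of 203, and the contrast without changes gave 0. Every simulated gene had the same dispersion, set from the median variance of the data, and same-numbered libraries were drawn independently. These shares therefore do not carry over to real genes that vary more.

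The members, gene lists and tests were chosen with earlier results of these data known. List entries were matched by symbol (620), GENCODE symbol (54) or RefSeq synonym (2), and 3 were not matched. Genes described are CCNB1, up to 3 called rises and 3 called falls in each list, by size, 43 fixed cell cycle genes, and the 10 largest rises and falls overall with both libraries of a fraction apart and a symbol that is no clone identifier; others were chosen after their values were seen. Other steps ran in Python 3.11.15 (numpy 2.4.6, pandas 2.3.3, scipy 1.17.1, matplotlib 3.10.9). Promoter windows cover 99.5% of genes tested. Alternatives were quantile normalization, scaling to nuclear reads without MALAT1, no filter, a filter of 10 RPM, a pseudocount of 0.1 RPM, limma-voom with TMM factors on the recovered reads, an adjusted p of 0.01, a 2-fold requirement, the replicate number as a block, a fit of the 4 untreated libraries, and leaving out each library.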

Additional observations from a re-analysis of the deposited data

Results flagged for a closer look

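The difference between fractions itself differed with treatment, by the interaction test in limma. It was more positive under selumetinib for 709 genes and more negative for 49 of the 14219 tested. Among the S-phase markers 37 had a more positive difference under selumetinib, and among the G2/M markers 48.

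Of the genes named first, CCNB1 had an interaction of 2.99 on the log2 scale, differing by 2.09 between untreated fractions. Genes among the 10 largest rises had interactions of 2.96 for PIF1, 2.81 for UBE2C, 2.74 for KIF20A, 1.23 for PSRC1, 1.96 for PLK1, 3.26 for DEPDC1, 2.79 for KIF14, 2.24 for KPNA2 and 2.32 for FAM83D, so each of these 9 rises was larger under treatment. Genes among the 10 largest falls had interactions of 3.68 for CCNE2, 2.74 for TP53INP1, 4.44 for E2F2, 3.63 for FAM111B and 2.17 for CCNE1. Of these 5, CCNE2, E2F2 and FAM111B differed in the positive direction between treated fractions, by 0.32, 1.57 and 0.83, and TP53INP1 and CCNE1 by −0.60 and −0.26. The falls were picked by the untreated difference, which the interaction subtracts, so the choice itself favours positive interactions among them. With 2 libraries in each group, no single library could be set apart as an outlier.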

How the results depend on the processing

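The 194 higher calls stayed within 1.5 times of that number under every alternative fit but 1, a replicate block, and no gene changed direction among called genes. The number of lower calls, 214, was 87 under quantile normalization, 115 with no filter, 136 with a filter of 10 RPM, 129 in a fit of the 4 untreated libraries alone, 81 at an adjusted p of 0.01 and 121 with a 2-fold requirement. Leaving out 1 library gave 130 to 220 higher and 81 to 309 lower calls. With limma-voom 240 were higher and 178 lower, and 193 and 160 of these were also called by limma on log2 values. More positive interactions, 709, numbered 477 to 1437 when 1 library was left out, the highest without selumetinib-treated CCNB1-negative replicate 1. More negative interactions, 49, numbered 326 under quantile normalization, 32 with nuclear scaling, 12 with no filter, 84 with limma-voom and 6 to 369 when 1 library was left out. The causes of these changes were not tested.

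The labels number replicates 1 and 2 in each group. Deviations of same-numbered libraries from their group means correlated at 0.35 between untreated fractions, 0.43 between treated fractions and −0.02 between untreated and treated CCNB1-negative cells, over 14219 genes, and with 2 pairs these numbers do not establish pairing. With a replicate block for the number 227 genes were higher and 273 lower, and with a replicate block by treatment 675 and 1248, with 2739 more positive and 1111 more negative interactions. Of the 96 genes chosen for description, 96 kept their side of the threshold with the first replicate block, and 6 more were called with the second.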

Other observations

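Of the genes called, 93 higher and 166 lower were in none of the lists, and the ones named here were chosen after their values were seen. CCNF, a cyclin that is a ubiquitin ligase subunit, had values of 10.01 and 9.16 in the CCNB1-negative and 11.79 and 11.67 in the CCNB1-positive libraries, a rise of 2.14 (SE 0.22, adjusted p = 3.3e-05 in limma). TROAP, a spindle-associated protein, rose by 2.07 (SE 0.20) and GPSM2, which orients the spindle, by 1.92 (SE 0.16). H2AFX, the histone variant phosphorylated at DNA breaks, rose by 1.09 (SE 0.15). ARHGAP11B and FAM72A rose by 1.66 and 2.31, but both have near-identical copies in the genome between which reads may be divided. Among genes that fell, MSH6, a mismatch repair protein, had values of 11.47 and 11.74 against 9.71 and 9.56 (difference −1.97, SE 0.16, adjusted p = 7e-06), and DONSON, a replication factor, and NPAT, an activator of histone genes, fell by 1.16 (SE 0.18) and 0.80 (SE 0.16). Without CCNB1-negative replicate 2 the calls of DONSON, NPAT and FAM72A were lost, that of NPAT also without each other untreated library and that of FAM72A with no filter, and the ARHGAP11B call was lost in a fit of the 4 untreated libraries alone.

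Other genes that fell held fewer reads or changed less. MYT1 had 31 and 19 reads against 7 and 4 (difference −2.36, SE 0.39, adjusted p = 0.0027 in limma), HEPACAM2 fell by 2.15 (SE 0.32), DLL1, a Notch ligand, by 1.37 (SE 0.30) and HES6 by 0.75 (SE 0.16). Between the selumetinib-treated fractions these 4 genes differed by −1.05, −1.61, −0.98 and −1.15. AREG and EREG, ligands of the EGF receptor, fell by 0.60 (SE 0.15, adjusted p = 0.045) and 0.58 (SE 0.14, adjusted p = 0.033), and IRS2 and KLHL24 by 0.96 and 0.79. With limma-voom the adjusted p was 0.056 for HEPACAM2, 0.13 for DLL1, 0.065 for AREG and 0.16 for KLHL24, so these 4 were not called. Of 16 alternative fits that tested them, MYT1 lost the call in 1, HEPACAM2 in 2 and DLL1 in 6, and of 17 HES6 and IRS2 lost it in 5, KLHL24 in 6, EREG in 7 and AREG in 9.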
